A study of Mus musculus with 12 samples.

Results

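Collagen genes are the 44 rows of the count table whose symbol is Col, a type number, the letter a and a chain number, out of 25239 gene symbols in all. Each codes for 1 chain of a collagen trimer, and they were set in 8 classes by the structure that the trimer builds: 11 fibrillar, 6 type IV (the network of the basement membrane), 6 type VI (beaded filaments), 9 fibril-associated (FACIT), 4 transmembrane, 2 multiplexin (types XV and XVIII), 3 short-chain (types VIII and X) and 3 others. Polyadenylated RNA of brain and of liver was sequenced from male C57BL6/J wild type mice of 24 months. Control mice were not heated, and heat stress mice spent 3 h per day for 15 days at 40 ± 0.5 °C and 60 ± 5% relative humidity. All were euthanised at 24 months and 16 days, and each tissue had 3 control and 3 heat stress libraries. The methods give 3 mice per group, but the labels do not say which mouse a library came from, so the p-values below measure the spread between these libraries.

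A collagen chain is hydroxylated and folded into a triple helix in the endoplasmic reticulum with the help of prolyl and lysyl hydroxylases and of the collagen chaperone HSP47, then secreted, trimmed and cross-linked outside the cell. Fibrillar collagens give tissues tensile strength, type IV collagen forms the sheet on which endothelial and epithelial cells rest, and type VI collagen links cells to the surrounding matrix. In the brain, collagen is found mainly in the walls of vessels, the meninges and the choroid plexus, whereas in the liver it lies in the portal tracts and around the sinusoids, where stellate cells can make it.

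Libraries held 10466198 to 15609040 counts, of which collagen genes took 0.0573 ± 0.0132% (SD, n = 3) in control brain, 0.0510 ± 0.0104% in heat stress brain, 0.0578 ± 0.0219% in control liver and 0.0624 ± 0.0149% in heat stress liver. Levels are given in CPM, the count scaled to the size of its library with TMM factors computed within a tissue. All 44 collagen genes had at least 1 count in brain and 42 did in liver. Enough counts for a test were present for 42 in brain and 21 in liver. In liver, a summed level of 10 skeletal muscle genes was 383 CPM in control replicate 1 and 2158 CPM in heat stress replicate 2 but 1.21 to 7.10 CPM in the other 4 libraries, so the liver collagen genes at an unadjusted p under 0.05 or without overlap of the groups, and some other collagen and partner genes, are also given without those 2 libraries (2 against 2). Of the liver libraries, control replicate 2 and heat stress replicates 1 and 3 carry the suffix 2nd in their column names, which the sources used here do not explain.

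Several collagen genes sit in pairs that start from a shared stretch of DNA or have more than 1 start, which bears on what a count per gene can hold. The sequences below come from RefSeq (GRCm38.p6, the build of the counts), which listed 38 promoter windows for 35 of the 44 genes, and are written 5′ to 3′ on the strand given. Capitals mark GGGCGG, the GC box bound by Sp factors, or its reverse complement. Col4a1 (minus strand, chr8:11198423-11312826) and Col4a2 (plus strand, chr8:11312805-11449287) point away from each other and their annotated starts overlap by 22 bases at chr8:11312805-11312826, shown on the plus strand because both genes are read from it. Col4a4 (minus strand, chr1:82448423-82586849) and Col4a3 (plus strand, chr1:82586921-82722059) are separated by 71 bases at chr1:82586850-82586920, shown on the minus strand.
Col4a1 and Col4a2: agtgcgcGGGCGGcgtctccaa
Col4a4 and Col4a3: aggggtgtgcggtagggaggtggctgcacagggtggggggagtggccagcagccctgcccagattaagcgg
The gap between Col4a4 and Col4a3 held no GC box, while the stretch shared by Col4a1 and Col4a2 held 1.

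Col18a1 (minus strand, chr10:77052178-77166548) has 2 RefSeq starts, and the 100 bases before each are shown because the gene's count pools the transcripts of both. The bases before the upstream start, chr10:77166531-77166630, are given before those of the downstream start, chr10:77113706-77113805.
Col18a1 upstream: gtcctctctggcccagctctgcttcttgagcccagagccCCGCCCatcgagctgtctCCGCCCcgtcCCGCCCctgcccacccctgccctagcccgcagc
Col18a1 downstream: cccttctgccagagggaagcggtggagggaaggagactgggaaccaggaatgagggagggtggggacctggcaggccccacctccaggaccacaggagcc
The upstream stretch held 3 GC boxes and the downstream stretch none. A GC box was present on either strand in the 250 bases before the start in 22 of the 38 collagen windows (57.9%) and in 32.7% of all 32851 windows in the table. CCAAT, the CCAAT box, was present in 34.2% of collagen windows and 33.8% of all, and TATAAA, the TATA box, in 13.2% and 12.4%. GAANNTTC, the core of the element that heat shock factors bind, was present in 1 collagen window (2.63%) against 6.69% of all windows. It was that of Col4a5 on chromosome X, 137 to 130 bases before the start, and is in capitals within the 40 bases of chrX:141475266-141475305 (plus strand).
Col4a5: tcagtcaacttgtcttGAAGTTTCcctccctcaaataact
A match is a run of letters and says nothing of whether a factor binds there.

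The question of each comparison was which collagen genes differed between heat stress and control mice of the same tissue. In brain, no collagen gene passed an adjusted p of 0.05 in edgeR's quasi-likelihood test, and neither did any other gene (0 of 42 collagen genes, 0 of 14806 genes in all). DESeq2 called 618 genes in brain, none of them a collagen gene, with a smallest collagen adjusted p of 0.0615 and an adjusted p for only 8 of the 42 genes. At an unadjusted p under 0.05 by edgeR there were 6 collagen genes (14.3%) against 20.1% of all genes, 5 lower in heat stress (10.0% of all genes were) and 1 higher (10.0%). A negative log2 fold change was found for 33 of 42 collagen genes (78.6%) and for 50.3% of all genes, and the median was -0.23 for collagen genes and -0.00 for all genes. Collagen genes thus had mostly negative values in heat stress brain, while with all brain libraries the share at an unadjusted p under 0.05 was below that of the whole table. Without control replicate 3, which had the highest summed collagen level of the brain libraries, the median was -0.11 and no collagen gene had an unadjusted p under 0.05. The median was -0.43 without control replicate 2 and -0.40 without heat stress replicate 3. Without control replicate 2 there were 9 of 42 collagen genes at that p, a share below that of all genes (4027 of 14979). Without heat stress replicate 2 there were also 9 of 42, a share above that of all genes (1665 of 15029).

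**Figure D1:**
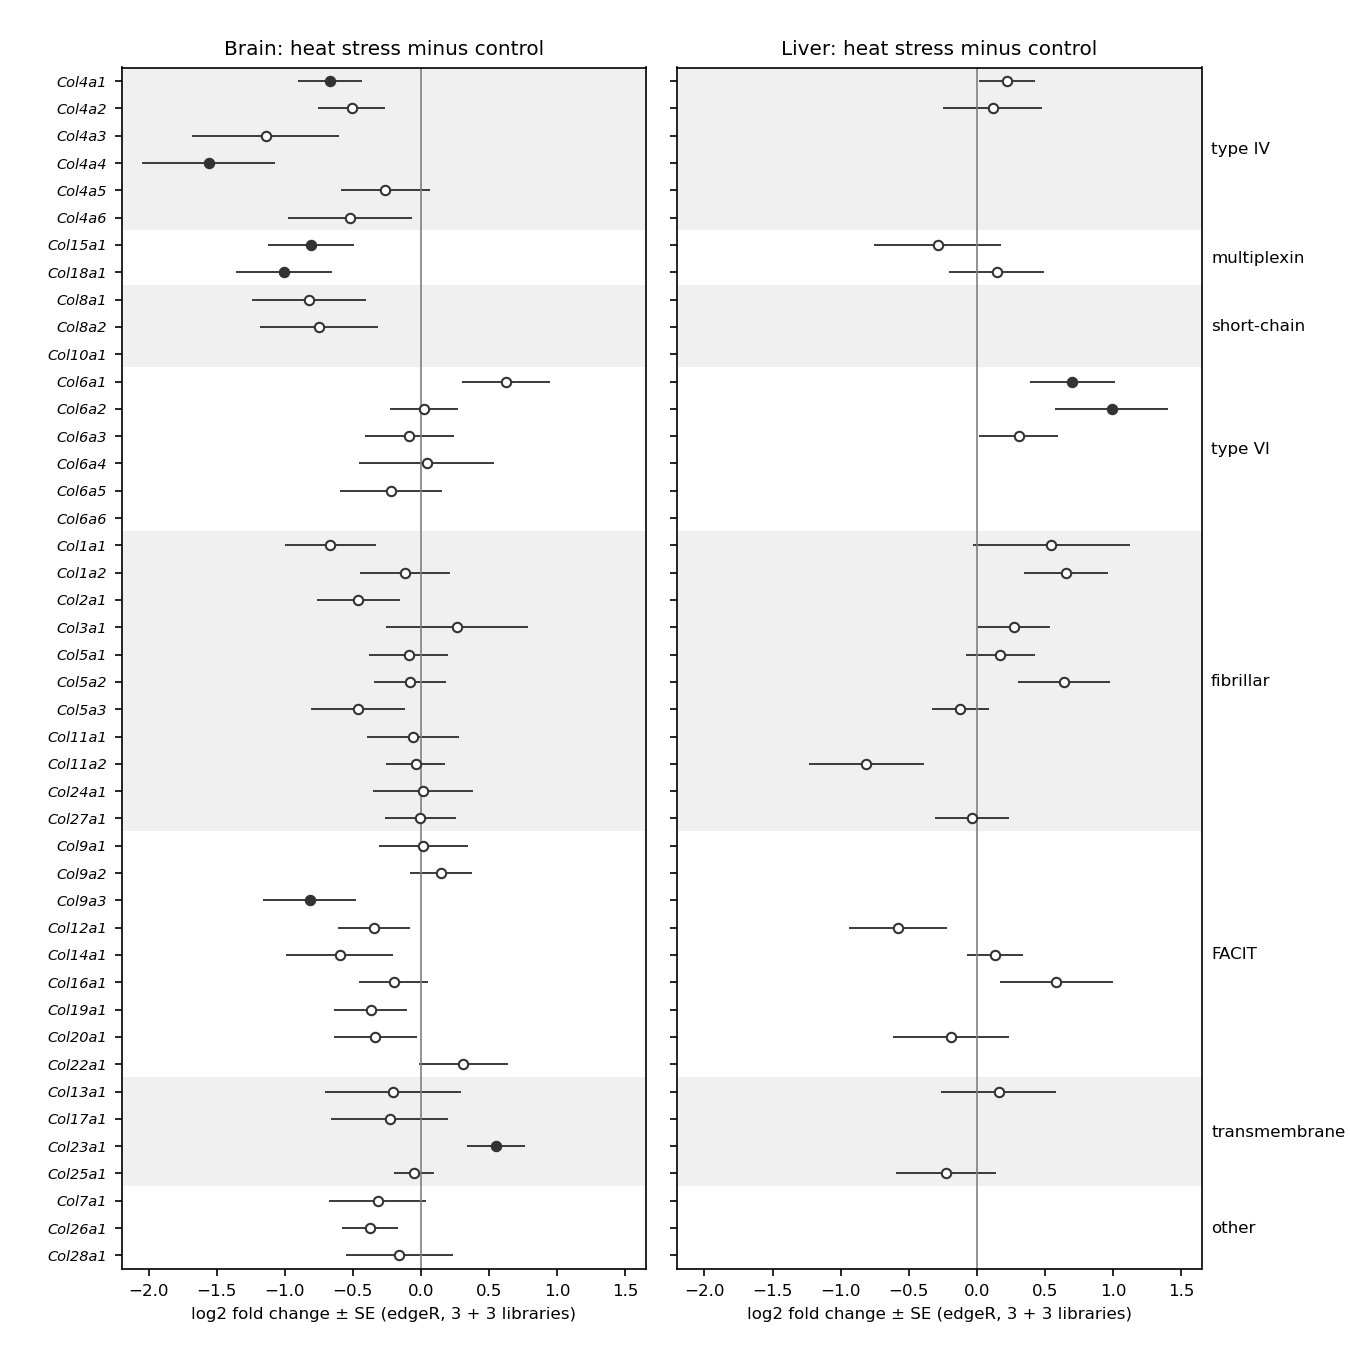
Log2 fold change of each collagen gene (heat stress minus control, points) with its standard error (bars) in brain and in liver, by class; filled points have an unadjusted p under 0.05 in edgeR's test of 3 against 3 libraries and genes with too few counts have no point. All 6 type IV genes lie left of 0 in brain, and all 3 tested type VI genes lie right of 0 in liver.

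The type IV chains, which assemble into the basement membrane network of vessels, had a negative log2 fold change in heat stress brain in all 6 genes, from -0.26 (Col4a5) to -1.56 (Col4a4), with 2 of them, Col4a1 and Col4a4, at an unadjusted p under 0.05. Col4a4 was tested only because its controls were high, as given below. The summed level of the class was 107 ± 25.0 CPM (SD, n = 3) in control and 72.0 ± 19.5 CPM in heat stress mice, and the groups overlapped. Col4a1, a chain of the network found under nearly all endothelia, read 47.6, 32.3 and 46.9 CPM in control and 18.6, 25.8 and 35.5 CPM in heat stress libraries. Only heat stress replicate 3 lay above the lowest control library. Its log2 fold change was -0.67 (SE 0.23, p 0.018, adjusted p 0.185 by edgeR's test over all genes) and kept its sign in each fit that left out 1 library (-0.93 to -0.47). Col4a2, the partner chain, read 55.7, 39.7 and 65.9 CPM in control and 25.9, 37.2 and 50.3 CPM in heat stress libraries (log2 fold change -0.51, SE 0.25, p 0.068, adjusted p 0.279 by edgeR).

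Both genes thus had the same order of heat stress libraries, with replicate 3 highest and replicate 1 lowest. Within a library the ratio of Col4a1 to Col4a2 counts does not depend on scaling. It was 0.793 ± 0.0739 in control and 0.705 ± 0.0107 in heat stress brain (SD, n = 3; exact permutation test, two-sided, p 0.2, where 0.1 is the smallest that 3 against 3 libraries allow). Col4a4, a chain of the network of specialised epithelia such as the kidney glomerulus, was the only collagen gene in brain whose groups did not overlap in either direction (1 of 42, against 24.9% of all genes, and 0 of 42 higher, against 12.9% of all genes). Its counts were low, at 1.44, 1.31 and 2.75 CPM in control and 1.02, 0.448 and 0.378 CPM in heat stress libraries. The log2 fold change was -1.56 (SE 0.49, p 0.011, adjusted p 0.172 by edgeR). Scaled to library size, its control counts (21, 15 and 34) reached the level needed for a test. The counts of heat stress replicates 2 and 3 (5 and 4) did not. That Col4a4 was tested thus depended on its controls being high, so its lack of overlap and its p support no conclusion. Col4a3, its neighbour across the 71-base gap, read 2.06, 0.698 and 2.51 CPM in control and 1.20, 0.806 and 0.378 CPM in heat stress libraries (log2 fold change -1.14, SE 0.54). Control replicate 2 was low for Col4a3, so its groups overlapped. Col4a5 and Col4a6, neighbours on the X chromosome, had log2 fold changes of -0.26 and -0.52 with standard errors of 0.33 and 0.46.

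The multiplexins, basement membrane collagens whose C-terminal ends can be released as fragments such as endostatin, were the only class in which each gene was lower at an unadjusted p under 0.05 in brain. Col18a1, which carries endostatin, read 8.09, 5.93 and 13.0 CPM in control and 3.79, 6.54 and 3.12 CPM in heat stress brain (log2 fold change -1.01, SE 0.35, p 0.018, adjusted p 0.186 by edgeR). Col15a1 read 8.36, 4.63 and 11.5 CPM in control and 4.62, 4.03 and 5.38 CPM in heat stress libraries (log2 fold change -0.81, SE 0.32, p 0.030, adjusted p 0.212 by edgeR). In each gene 1 heat stress library lay above control replicate 2, and control replicate 3 was the highest of the 6. Without that library Col18a1 was at -0.65 and Col15a1 at -0.48.

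Col8a1 and Col8a2, the short chains of a hexagonal network in vessel walls and under the corneal endothelium, had similar log2 fold changes of -0.82 (SE 0.42) and -0.75 (SE 0.44). Col8a1 read 8.84, 6.98 and 12.6 CPM in control and 5.36, 8.60 and 2.08 CPM in heat stress libraries. Col8a2 read 8.71, 9.08 and 11.1 CPM in control and 4.80, 10.2 and 2.08 CPM in heat stress libraries. In both genes heat stress replicate 2 lay within the control range and replicates 1 and 3 lay under it. Without replicate 2 the log2 fold changes were -1.35 for Col8a1 and -1.48 for Col8a2, and without replicate 3 they were -0.44 and -0.36. Col10a1, the chain of growth plate cartilage, had at most 5 counts in a brain library and was not tested.

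**Figure D2:**
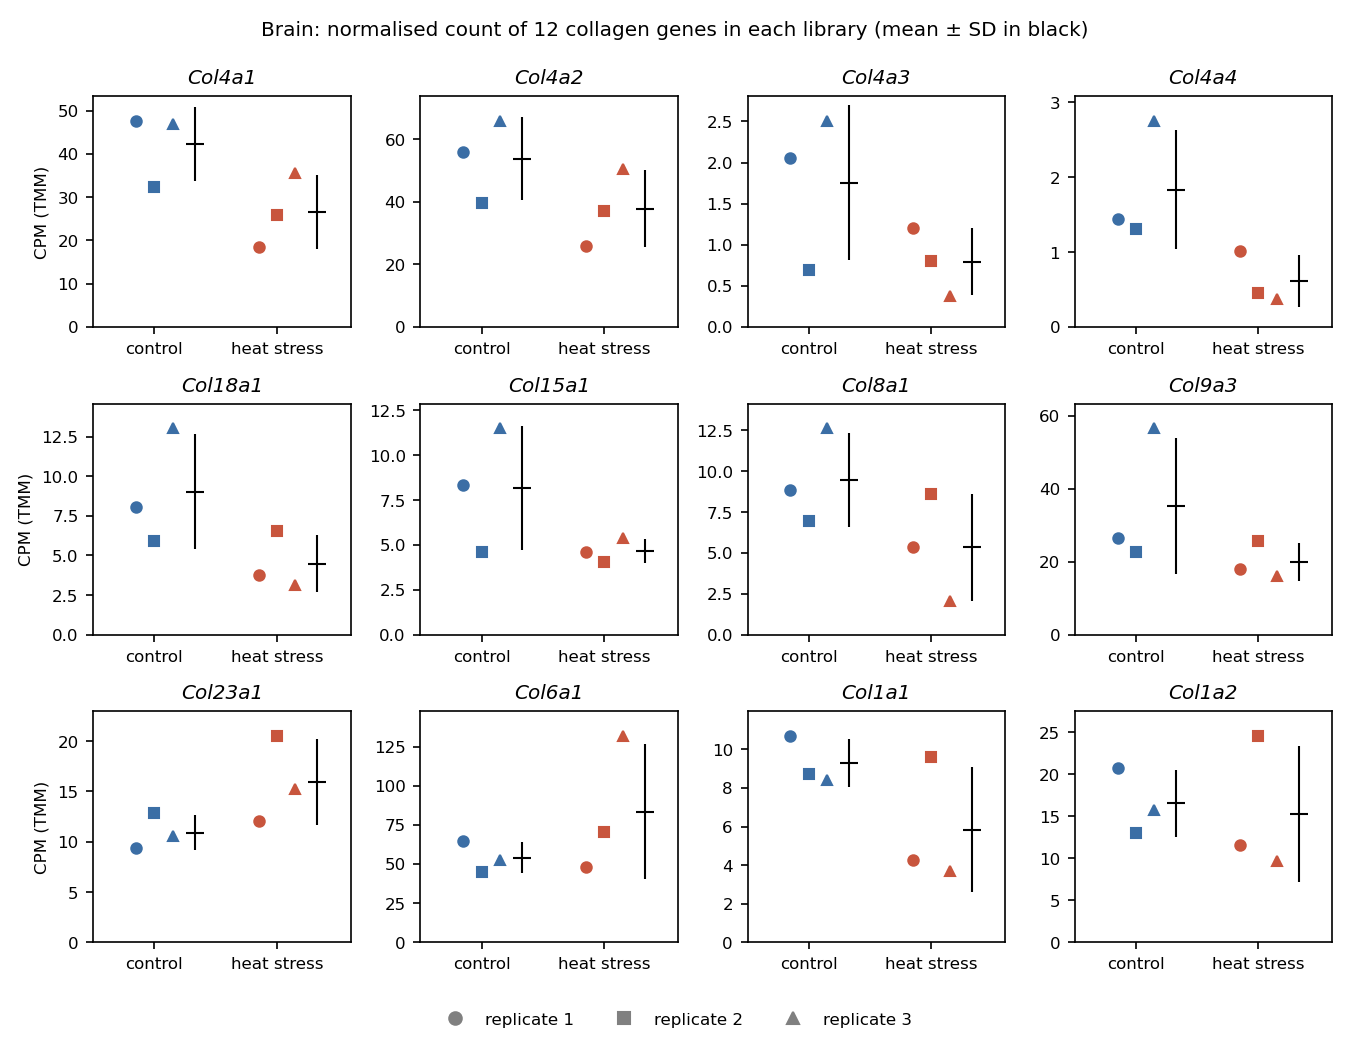
Normalised count (CPM after TMM scaling, vertical axis from 0) of 12 collagen genes in each of the 6 brain libraries, with blue for control and red for heat stress, a symbol for each replicate number and the mean ± SD in black. Only the Col4a4 panel has all heat stress libraries under all control libraries, and that gene was tested only because its controls were high. Heat stress replicate 3 stands above the rest for Col6a1.

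Among the FACIT collagens, which sit on the surface of fibrils, Col9a3 was the gene at an unadjusted p under 0.05. It read 26.5, 22.5 and 56.5 CPM in control and 18.1, 25.7 and 16.0 CPM in heat stress brain (log2 fold change -0.82, SE 0.34, p 0.040, adjusted p 0.233 by edgeR). Control replicate 3 held more than any other library, and without it the log2 fold change was -0.30. Col9a1 and Col9a2, its partner chains in type IX collagen, were at 0.02 and 0.15 on the log2 scale (SE 0.33 and 0.23), so the 3 chains of that trimer did not share a sign. Col19a1 (22.2 to 49.0 CPM over the 6 libraries) and Col16a1 (19.6 to 43.7 CPM) had log2 fold changes of -0.37 (SE 0.27) and -0.20 (SE 0.26). When 1 library was left out, Col19a1 ranged from -0.63 to -0.11, the latter without control replicate 1. The FACIT class had 6 negative values among 9 genes.

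Of the fibrillar collagens 9 of 11 had a negative log2 fold change, none at an unadjusted p under 0.05, and the class median was -0.08. Col1a1 and Col1a2, the chains of type I collagen, the main protein of scar, bone and meninges, differed from each other. Col1a1 read 10.7, 8.73 and 8.42 CPM in control and 4.25, 9.58 and 3.68 CPM in heat stress brain (log2 fold change -0.67, SE 0.33, p 0.077, adjusted p 0.294 by edgeR). Col1a2 read 20.8, 13.0 and 15.8 CPM in control and 11.5, 24.5 and 9.63 CPM in heat stress brain (log2 fold change -0.12, SE 0.33). Both were high in heat stress replicate 2 and low in replicates 1 and 3, and without replicate 2 Col1a1 was at -1.23 and Col1a2 at -0.65. The ratio of Col1a1 to Col1a2 counts was 0.515, 0.671 and 0.533 in the control libraries, against 0.368, 0.391 and 0.382 in those of heat stress. These ratios did not overlap between the groups, and the log2 difference of -0.58 had a p of 0.1 in the exact two-sided permutation test, the smallest it can give with 3 against 3. Col3a1, the fibrillar partner of type I collagen in vessel walls, read 6.63 CPM in heat stress replicate 2 and 1.57 to 3.84 CPM in the other brain libraries.

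The 2 most abundant fibrillar genes of brain were near level on average. Col11a2, a chain known from cartilage and the inner ear, had a log2 fold change of -0.04 (SE 0.22) and Col5a1, a chain that regulates the width of fibrils, one of -0.09 (SE 0.29). Each was positive in the fits without control replicate 3 and without heat stress replicate 1.

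Type VI was the class with the least lean to lower values, with 3 of 5 tested genes positive and a median of 0.02. Col6a1 read 64.5, 44.9 and 52.6 CPM in control and 48.3, 70.1 and 132 CPM in heat stress brain (log2 fold change 0.62, SE 0.33, p 0.089, adjusted p 0.312 by edgeR). Heat stress replicate 3 was well above the other 5 libraries, and without it the log2 fold change was 0.13 and the log2 ratio of the summed type VI levels went from 0.42 to 0.0049. Col6a2, whose product pairs with that of Col6a1 in every type VI trimer, read 25.5, 13.8 and 17.3 CPM in control and 14.9, 18.4 and 24.6 CPM in heat stress libraries (log2 fold change 0.02, SE 0.25). The ratio of Col6a1 to Col6a2 counts was 2.94 ± 0.371 in control and 4.14 ± 1.10 in heat stress brain (SD, n = 3; exact permutation test, two-sided, p 0.2). Col6a6 had at most 12 counts in a library and was not tested.

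Among the transmembrane collagens, Col23a1 was the only collagen gene of brain that was higher at an unadjusted p under 0.05. It read 9.39, 12.8 and 10.5 CPM in control and 12.1, 20.5 and 15.2 CPM in heat stress libraries (log2 fold change 0.55, SE 0.21, p 0.030, adjusted p 0.210 by edgeR). Heat stress replicate 1 lay under control replicate 2 and the other 2 heat stress libraries lay above all controls. Without heat stress replicate 2 it was at 0.32. Col25a1, a neuronal collagen whose shed form is found in amyloid plaques, was close to level at 41, 60.1 and 54.8 CPM in control and 52.9, 49.9 and 47.6 CPM in heat stress brain (log2 fold change -0.05, SE 0.15). The 3 genes outside these classes, Col7a1 of the anchoring fibrils of skin, Col26a1 and Col28a1, had log2 fold changes of -0.32, -0.38 and -0.16 with standard errors of 0.36, 0.21 and 0.40.

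Marker genes of other cell types and regions were also read in these libraries, where 10.0% of all genes were lower and 10.0% higher at an unadjusted p under 0.05 and 24.9% had groups without overlap in either direction. These lists, like the partner lists below, were chosen with earlier results of these data known. They hold genes that the paper reports as changed in brain, among them Adora2a, Gpr6, Slc4a5 and Pecam1. Their shares beside those of all genes are thus a description and no independent support. In bulk tissue, fewer cells of a type and less RNA per cell cannot be told apart. All 8 endothelial markers were lower in heat stress brain at an unadjusted p under 0.05 by edgeR, 7 of them without overlap, and their summed level was 124 to 250 CPM in control and 81.0 to 103 CPM in heat stress libraries. All 8 choroid plexus markers had a negative log2 fold change, 4 at an unadjusted p under 0.05, and their sum, 92.7% of it Ttr, was 1255 to 2496 CPM in control and 262 to 1134 CPM in heat stress libraries. Control replicate 3 was the highest library for choroid plexus markers and for Col9a3, Col18a1 and Col8a1, and heat stress replicate 3 was the lowest for all 4. The 11 markers of leptomeningeal and perivascular fibroblasts summed to 270 to 318 CPM in control and to 170, 486 and 163 CPM in heat stress replicates 1, 2 and 3, and replicate 2 was also the highest for Col1a2 and Col3a1. All 7 striatal markers were positive, 6 at an unadjusted p under 0.05, and all 7 habenula and thalamus markers were negative, with a sum of 463 CPM in control replicate 3 and 72.0 to 216 CPM in the other libraries. The 8 markers of pericytes and smooth muscle summed to 213 to 304 CPM in control and 189 to 256 CPM in heat stress brain, with 3 lower at an unadjusted p under 0.05. No endothelial, choroid plexus, pericyte or fibroblast marker was at 0 in all brain libraries. The part of these cells and regions in the collagen values was not tested.

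The collagen genes were also read against a list of 11 laminins, nidogens and proteoglycans that share the basement membrane with type IV collagen. All 11 had a negative log2 fold change in heat stress brain, 7 had an unadjusted p under 0.05 by edgeR and 6 had groups without overlap, while 50.3% of all brain genes were negative, 10.0% were lower at that p and 24.9% had groups without overlap in either direction. None passed the adjusted threshold (smallest adjusted p 0.170). Lamc1, the gamma chain of most laminins, read 37.6, 24.5 and 29.9 CPM in control and 16.3, 17.3 and 19.3 CPM in heat stress libraries (log2 fold change -0.81, SE 0.17, unadjusted p 9.14e-04). Hspg2, the gene of perlecan, had the most negative value of the list at -1.25 (SE 0.32). Lamb2, Lama5, Nid2, Lama2 and Lamb1 were at -0.91, -0.88, -0.73, -0.52 and -0.41. The laminin and perlecan genes thus had the same sign as the type IV and multiplexin genes.

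Of the genes that modify collagen chains in the endoplasmic reticulum, 12 of 14 were negative in brain, against 50.3% of all genes. At an unadjusted p under 0.05, 4 were lower, against 10.0% of all genes. P4ha1, the catalytic subunit of prolyl 4-hydroxylase, read 49.9, 41.1 and 42.7 CPM in control and 29.8, 32.7 and 35.2 CPM in heat stress libraries, without overlap (log2 fold change -0.45, SE 0.12, p 0.0047, adjusted p 0.170 by edgeR). The other 3 were P3h2 (-0.81), a prolyl 3-hydroxylase, and the lysyl hydroxylases Plod1 (-0.47) and Plod3 (-0.38). P4hb, the beta subunit of prolyl 4-hydroxylase and a general disulfide isomerase, was at -0.10 (SE 0.10) and Plod2 at -0.11 (SE 0.18). Serpinh1, the gene of HSP47 and a known target of heat shock factor, read 20.1, 20.3 and 19.6 CPM in control and 12.2, 20.2 and 13.0 CPM in heat stress brain (log2 fold change -0.40, SE 0.19, p 0.067, adjusted p 0.277 by edgeR). Heat stress replicate 2 alone lay within the control range for Serpinh1, as for the Col8 genes.

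Outside the cell, 1 of 6 propeptide genes and none of 4 cross-linking genes had an unadjusted p under 0.05 in brain, against 20.1% of all genes. Adamts3, a procollagen N-proteinase, was higher without overlap at 20.1 to 21.5 CPM in control and 24.9 to 44.5 CPM in heat stress libraries (log2 fold change 0.70, SE 0.20, p 0.0057, adjusted p 0.170 by edgeR). Bmp1, the C-proteinase, was at -0.13 (SE 0.20) and Lox, a lysyl oxidase that starts cross-linking, at -0.19 (SE 0.49). All 4 tested cross-linking genes were negative (median -0.32), and the summed level of the list was 11.43 to 11.58 CPM in control and 9.05, 11.38 and 6.89 CPM in heat stress libraries, each below all controls. Of the collagenases and their inhibitors, Mmp15 (-0.80) and Mmp14 (-0.47), both bound to the membrane, were lower at an unadjusted p under 0.05, while Mmp2, a gelatinase, was at -0.53 (SE 0.35) and Timp3 at -0.02 (SE 0.15). Prelp, a leucine-rich proteoglycan that anchors basement membranes, was at -0.74 (SE 0.26), Fn1 (fibronectin) at -0.64 (SE 0.56) and Sparc, which binds collagen, at -0.08 (SE 0.44). Of the 8 tested receptors for collagen 3 were lower without overlap at an unadjusted p under 0.05, namely the integrin chain Itga1 (-0.96), the adhesion receptor Adgrg1 (-0.52) and the tyrosine kinase Ddr1 (-0.41), where 10.0% of all brain genes were lower at that p and 24.9% did not overlap in either direction. Of the 11 regulators in the TGF-beta and CCN list, Pdgfrb (-0.60), Tgfbr2 (-0.47), Tgfb2 (-0.46) and Smad7 (-0.28) were lower and Tgfbr1 (0.32) was higher at an unadjusted p under 0.05.

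**Figure D3:**
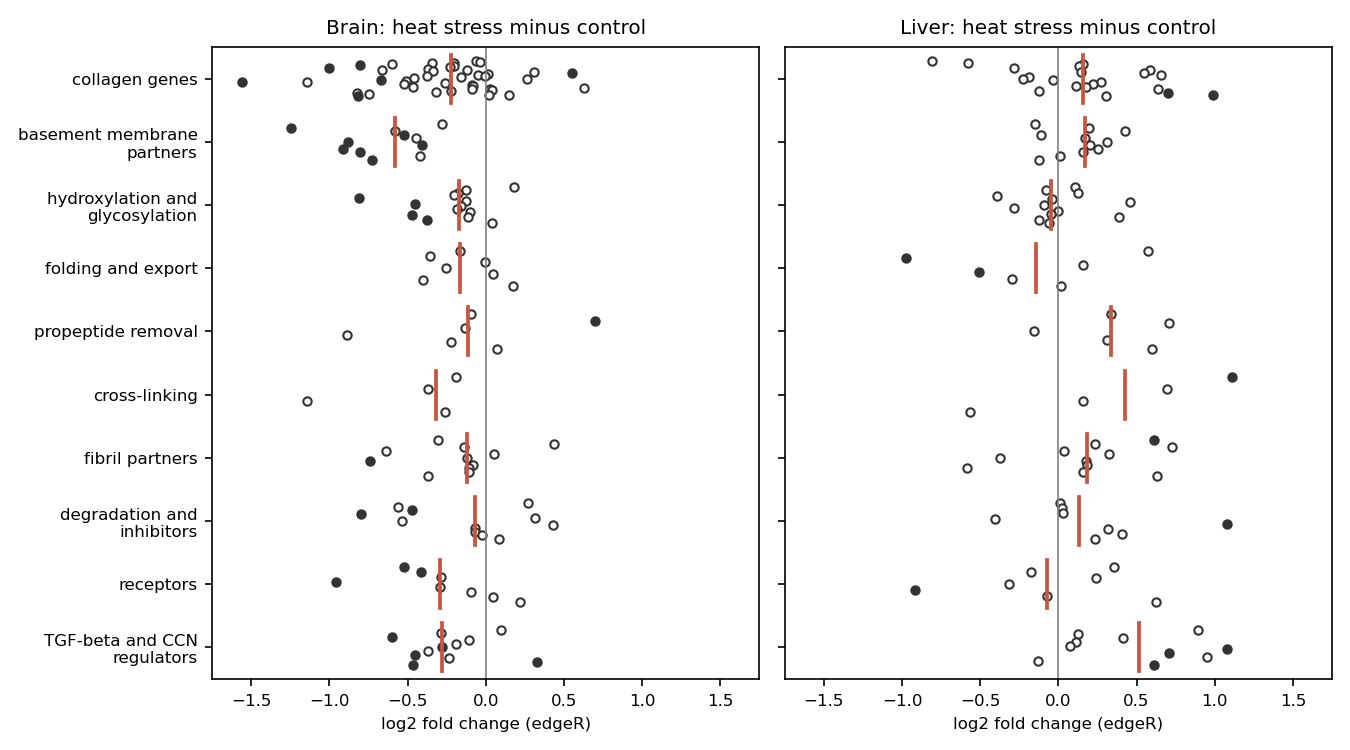
Log2 fold change (heat stress minus control) of the tested collagen genes and of 9 lists of genes that modify, export, process, bind or regulate collagen, in brain and in liver; points are genes, filled at an unadjusted p under 0.05 by edgeR, and red bars are list medians. All 11 basement membrane partners lie left of 0 in brain, where their median was -0.58, and their median in liver was 0.17.

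In liver, no collagen gene passed an adjusted p of 0.05 by edgeR (0 of 21, and 0 of 12296 genes in all), and DESeq2 called 61 genes, none of them a collagen gene. At an unadjusted p under 0.05 by edgeR there were 2 collagen genes (9.52%, against 5.84% of all genes), both higher in heat stress (2.97% of all genes were) and none lower (2.87%). A negative log2 fold change was found for 7 of 21 collagen genes (33.3%) and for 48.2% of all genes, and the median was 0.16 for collagen genes and 0.01 for all genes. Over the same 21 genes it lay between 0.028 (without heat stress replicate 2) and 0.31 (without control replicate 1) when a library was left out. It was 0.35 with the column suffix as a term, and it was negative when collagen genes with fewer counts were fitted too (-0.056 in the fit of all 12 libraries, -0.044 in DESeq2 and -0.032 with no filter). Over the 23 collagen genes tested without control replicate 2 it was also -0.044. The count of 2 rested on single libraries. It was 6 of 22 without control replicate 1, against 1614 of 12519 genes in all. It was 0 without control replicate 2, heat stress replicate 2 or heat stress replicate 3. In these fits 414 of 12655, 621 of 12475 and 420 of 12687 genes in all were at that p. DESeq2 gave 0 collagen genes, against 627 genes in all. With the column suffix as a term the count was 5 of 21, against 1046 of 12296 genes in all. Col1a1, Col1a2 and Col16a1 were the others, with none past the adjusted threshold. Without both libraries with muscle transcripts it was 2 of 20, Col6a2 and Col18a1, against 1274 of 12239 genes in all.

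Type VI held both genes. Col6a2 read 2.90, 0.979 and 1.68 CPM in control and 2.68, 5.09 and 3.47 CPM in heat stress liver (log2 fold change 0.99, SE 0.41, p 0.038, adjusted p 0.846 by edgeR). Col6a1 read 5.36, 3.51 and 4.85 CPM in control and 4.47, 9.90 and 7.97 CPM in heat stress liver (log2 fold change 0.70, SE 0.31, p 0.0497, adjusted p 0.854 by edgeR). In both genes control replicate 1, a library with muscle transcripts, lay above heat stress replicate 1, and heat stress replicate 2, the other such library, was the highest. Without those 2 libraries Col6a2 was at 1.20 (SE 0.44) and Col6a1 at 0.56 (SE 0.34). Among the libraries with the suffix 2nd, the control read 0.979 CPM and the heat stress libraries 2.68 and 3.47 CPM of Col6a2, and among those without it the controls read 2.90 and 1.68 CPM and the heat stress library 5.09 CPM. With the suffix as a term beside the group, an alternative chosen after the data were seen, Col6a2 was at 1.33 (SE 0.34, adjusted p 0.352 by edgeR) and Col6a1 at 0.89 (SE 0.28, adjusted p 0.449).

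Col6a3, the long chain of the same trimer, read 5.16, 5.79 and 7.83 CPM in control and 6.92, 10.7 and 5.44 CPM in heat stress liver. Its log2 fold change of 0.31 (SE 0.29) was -0.15 without the libraries with muscle transcripts. It was 0.23 with the muscle level as a covariate and 0.43 with the column suffix as a term. The summed level of type VI genes was 13.0 ± 2.34 CPM in control and 19.3 ± 6.35 CPM in heat stress liver (SD, n = 3), with overlap, and its log2 ratio of 0.56 was 0.27 without heat stress replicate 2. The ratio of Col6a1 to Col6a2 counts was 2.77 ± 0.875 in control and 1.97 ± 0.315 in heat stress liver (exact permutation test, two-sided, p 0.3).

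**Figure D4:**
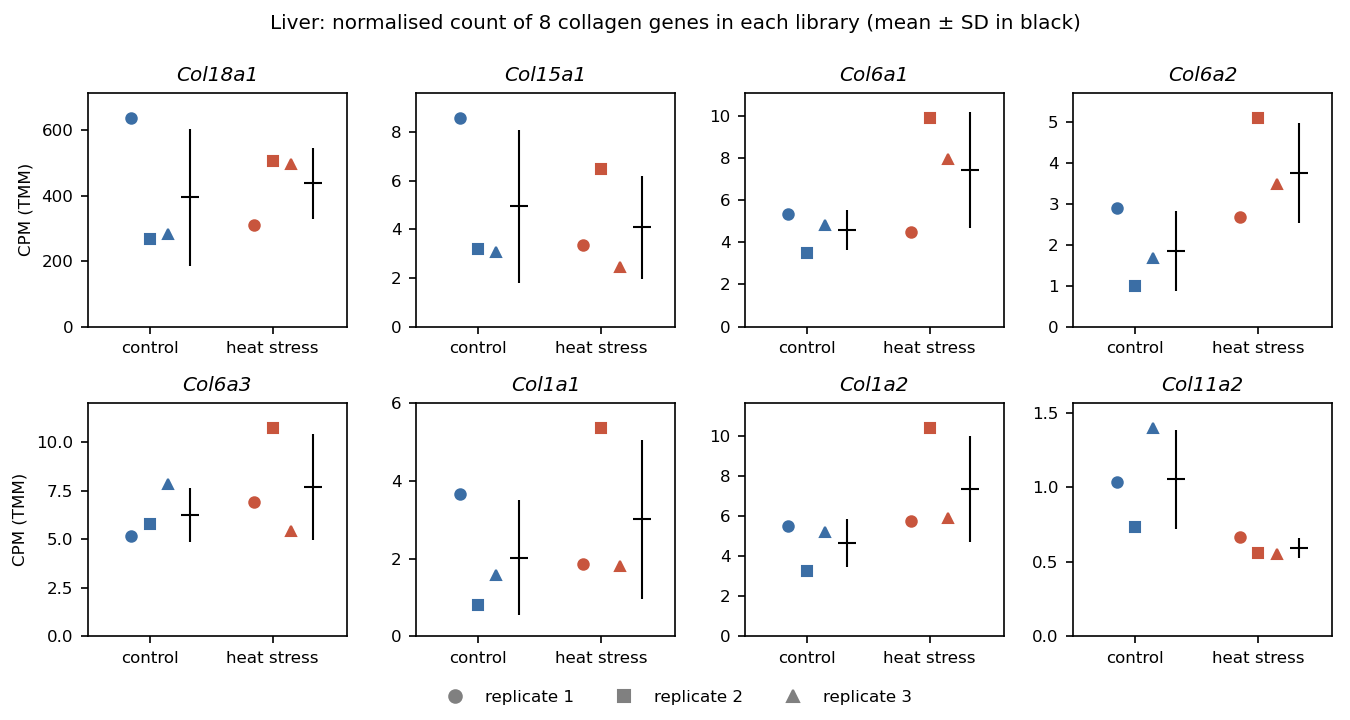
Normalised count (CPM after TMM scaling, vertical axis from 0) of 8 collagen genes in each of the 6 liver libraries, with blue for control and red for heat stress, a symbol for each replicate number and the mean ± SD in black. Control replicate 1 and heat stress replicate 2, which held skeletal muscle transcripts, are high for Col15a1 and Col1a1, and Col1a2 and Col11a2 have groups that do not overlap.

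Of the fibrillar genes 5 of 8 were positive in liver. Col1a2 read 5.49, 3.26 and 5.22 CPM in control and 5.73, 10.4 and 5.91 CPM in heat stress liver, and was the only collagen gene higher without overlap (1 of 21, against 5.38% of all genes). The gap between the groups was small, from 5.49 to 5.73 CPM, and its log2 fold change was 0.66 (SE 0.31, p 0.059, adjusted p 0.874 by edgeR) with all libraries and 0.45 (SE 0.32) without those that held muscle transcripts. Without heat stress replicate 2 alone Col1a2 was at 0.32 (SE 0.30). Col1a1 read 3.68, 0.815 and 1.58 CPM in control and 1.86, 5.37 and 1.81 CPM in heat stress liver (log2 fold change 0.55, SE 0.58), with the high value of each group in the library with muscle transcripts, and was at -0.17 without heat stress replicate 2. Without both libraries with muscle transcripts Col1a1 was at 0.61 (SE 0.49), and with the column suffix as a term at 1.06 (SE 0.38). The ratio of Col1a1 to Col1a2 counts was 0.408 ± 0.229 in control and 0.383 ± 0.116 in heat stress liver (exact permutation test, two-sided, p 1).

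Col11a2 was the only tested collagen gene lower without overlap in liver (1 of 21, against 5.73% of all genes). It read 1.03, 0.734 and 1.40 CPM in control and 0.670, 0.558 and 0.552 CPM in heat stress libraries (log2 fold change -0.81, SE 0.42, p 0.083, adjusted p 0.901 by edgeR), close to the level at which a gene could be tested, and had too few counts for a test without the libraries with muscle transcripts. Scaled to library size, only its control counts (16, 9 and 15, against 9, 8 and 7 in heat stress) reached that level. That Col11a2 was tested thus depended on its controls being high, so its lack of overlap supports no conclusion. The fibrillar genes at the top of the liver scale were near level. Col5a3, a chain of type V collagen, read 43.6 to 47.2 CPM in control and 32.2 to 55.0 CPM in heat stress libraries (log2 fold change -0.12, SE 0.21). Col27a1, a cartilage collagen, was at -0.04 (SE 0.27) and at 0.26 without the libraries with muscle transcripts.

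Col18a1 was the most abundant collagen gene of liver per length, as shown for the control groups below, and its libraries were far apart. It read 636, 267 and 282 CPM in control and 311, 504 and 496 CPM in heat stress liver (log2 fold change 0.14, SE 0.35, p 0.684, adjusted p 0.980 by edgeR). Control replicate 1 was the highest library and heat stress replicate 1 lay with control replicates 2 and 3. Without the 2 libraries with muscle transcripts the log2 fold change was 0.54 (SE 0.23, unadjusted p 0.026, adjusted p 0.381 by edgeR). With all libraries and the muscle level as a covariate instead, it was 0.081 (SE 0.22). Col15a1, the other multiplexin, read 8.59 CPM in control replicate 1, 6.48 CPM in heat stress replicate 2 and 2.44 to 3.35 CPM in the other 4 libraries, so its high values were those of the libraries with muscle transcripts (log2 fold change -0.29, SE 0.47, and -0.12 without both).

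Of the 6 type IV genes, Col4a1 and Col4a2 were tested in liver and the other 4 had too few counts. Col4a1 read 13.3, 9.62 and 12.1 CPM in control and 12.4, 16.0 and 12.5 CPM in heat stress liver (log2 fold change 0.22, SE 0.20, and 0.18 without the libraries with muscle transcripts). Col4a2 was at 0.12 (SE 0.36) and at 0.20 without those libraries, and the ratio of Col4a1 to Col4a2 counts was 1.66 ± 0.461 in control and 1.78 ± 0.577 in heat stress liver (exact permutation test, two-sided, p 0.8). Among the FACIT genes Col14a1, a collagen of the fibril surface, read 20.7 to 31.8 CPM in control and 26.7 to 34.5 CPM in heat stress liver (log2 fold change 0.13, SE 0.21), and Col16a1 was at 0.58 (SE 0.41). Without the libraries with muscle transcripts they were at 0.21 and 0.57. When 1 library was left out, Col16a1 ranged from 0.18 (without heat stress replicate 2) to 0.97 (without control replicate 1). Of the transmembrane genes Col13a1 and Col25a1 were tested, at 0.16 (SE 0.42) and -0.23 (SE 0.37).

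The other 23 collagen genes were not tested in liver. Of these, 11 had at most 3 counts in any library, Col10a1 and Col26a1 among them with no count in any of the 6, and 10 had 4 to 10 counts in their highest library. Col4a5 and Col8a1 went above 10, with up to 14 and 16 counts. Of the 23, Col7a1 (10, 7 and 9 counts in control and 4, 8 and 5 in heat stress libraries) and Col9a3 (6, 3 and 3 against 1, 1 and 2) had fewer counts per size of library in each heat stress library than in any control library, but no test was made at such counts. The 8 endothelial markers summed to 94.0 to 107 CPM in control and 104 to 123 CPM in heat stress liver, and the 8 stellate cell markers to 220 to 251 and 240 to 271 CPM, with overlap in both lists and no gene of either at an unadjusted p under 0.05. The 11 fibroblast markers summed to 349 to 469 CPM in control and 474 to 709 CPM in heat stress liver, 69.5% of it Igfbp2. Igfbp2 was the only 1 of the 5 tested at an unadjusted p under 0.05 (log2 fold change 0.66). Of all liver genes 5.84% had an unadjusted p under 0.05 by edgeR, and 2.97% were higher at that p. The sum of the pericyte and smooth muscle markers, 93.6% of it Vtn, was 1087 to 2322 CPM in control and 1538 to 2346 CPM in heat stress liver. Their part in the type VI and Col1a2 values was not tested.

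Collagen partners in liver were tested in the same fit. Loxl1, a lysyl oxidase of elastic fibres, was at 1.11 (SE 0.45), Mmp2 at 1.08 (SE 0.40) and Bgn, the gene of biglycan, at 0.61 (SE 0.20), each with an unadjusted p under 0.05. Mmp2 read 1.23, 0.815 and 1.49 CPM in control and 2.23, 3.55 and 1.66 CPM in heat stress liver, and Bgn read 67.6, 47.8 and 56.8 CPM in control and 75.4, 103 and 84.3 CPM in heat stress liver. Neither gene's groups overlapped. Without the libraries with muscle transcripts Bgn was at 0.60 (SE 0.19), whereas Loxl1 at 0.87 (SE 0.55) and Mmp2 at 0.75 (SE 0.49) no longer had an unadjusted p under 0.05. Of the 10 tested regulators 9 were positive, with Smad7 (1.08), the inhibitory Smad that TGF-beta induces, Tgfb1 (0.71) and Tgfbr2 (0.61) higher without overlap at an unadjusted p under 0.05, where 2.97% of all liver genes were higher at that p and 5.38% were higher without overlap. Without the libraries with muscle transcripts Smad7 was at 1.40 (SE 0.27, adjusted p 0.0134 by edgeR), past the threshold it missed with all libraries (adjusted p 0.472). That fit had 2 against 2 libraries, of which both heat stress libraries and 1 control carry the suffix 2nd, and with the suffix as a term in all 6 libraries Smad7 was at 1.24 (SE 0.29, adjusted p 0.328). Without the libraries with muscle transcripts Tgfb1 was at 0.80 and Tgfbr2 at 0.60. Tgfb1 read 3.94, 3.18 and 3.45 CPM in control and 5.36, 5.64 and 6.31 CPM in heat stress liver (adjusted p 0.656 by edgeR).

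In the fit with all liver libraries, the genes for folding and export of collagen had the lowest adjusted p of these lists. Fkbp14, a prolyl isomerase of the endoplasmic reticulum, read 10.1, 10.8 and 12.1 CPM in control and 5.73, 5.71 and 5.28 CPM in heat stress liver (log2 fold change -0.97, SE 0.19, unadjusted p 5.46e-04, adjusted p 0.269 by edgeR). Sec24d, a COPII coat protein needed for export of procollagen, was at -0.51 (SE 0.16), without overlap. Without the libraries with muscle transcripts Fkbp14 was at -1.07 (SE 0.27, adjusted p 0.069 by edgeR) and Sec24d at -0.50 (SE 0.19). Serpinh1 read 12.1, 13.5 and 13.3 CPM in control and 9.68, 12.5 and 9.39 CPM in heat stress liver (log2 fold change -0.30, SE 0.19, p 0.156, adjusted p 0.934 by edgeR). The hydroxylases P4hb and P4ha1 were at -0.00 (SE 0.21) and -0.09 (SE 0.26), Plod2 at 0.38 (SE 0.38), Bmp1 at -0.15 (SE 0.20), Timp3 at 0.23 (SE 0.22), Sparc at 0.18 (SE 0.16) and Fn1 at 0.04 (SE 0.25). The collagen receptor Itga10 was at -0.92 (SE 0.39), with an unadjusted p of 0.040 by edgeR, and at -1.06 (SE 0.50) without the libraries with muscle transcripts. Lox and Timp1 had too few counts for a test in liver, as had Timp1 in brain.

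Whether a collagen gene's heat stress effect differed between liver and brain was tested directly, in a fit of all 12 libraries. Brain and liver libraries may come from the same mice, which the labels do not say, and the fit took them as independent. None of 42 collagen genes passed an adjusted p of 0.05, and 1 of 15824 genes did (0.00632%). At an unadjusted p under 0.05 there were 2 collagen genes (4.76%, against 9.64% of all genes). The effect on Col4a1 was more positive in liver by 0.87 on the log2 scale (SE 0.36, p 0.030, adjusted p 0.516 by edgeR). The other was Col28a1, which had no count in control liver and at most 2 counts in a heat stress liver library, so no fold is given. For Col18a1 the difference was 1.11 (SE 0.60) and for Col6a1, which was positive in both tissues, 0.06 (SE 0.51). Thus no collagen gene was shown to respond differently in the 2 tissues.

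Control brain and control liver, compared in the same fit with levels on a scale shared by all 12 libraries, used different collagens. Of 42 tested genes 26 (61.9%) were higher in brain at an adjusted p under 0.05 and a log2 fold change past 1, against 37.2% of all genes, and 7 (16.7%) were higher in liver, against 27.5%. The median log2 fold change of all genes was 0.24 on this scale and 0.31 with RLE scaling. Per kilobase of exon, Col18a1 stood first in control liver at 85.1 ± 51.6 CPM (SD, n = 3), followed by Col5a3 at 9.92 ± 1.01, Col14a1 at 5.93 ± 1.6, Col3a1 at 2.55 ± 0.647 and Col27a1 at 2.53 ± 0.477 CPM. These 5 genes were all among the 7 that were higher in liver, with log2 fold changes (brain minus liver) of -6.59 for Col18a1, -3.85 for Col5a3, -5.38 for Col14a1, -3.68 for Col3a1 and -2.23 for Col27a1. The other 2 were Col13a1 (-1.89) and Col6a3 (-1.14). Col5a3 lay above Col14a1 by more than the sum of their SDs, whereas Col3a1 and Col27a1 did not differ beyond theirs.

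In control brain Col6a1 came first per kilobase at 8.44 ± 1.57 CPM, followed by Col9a3 at 6.26 ± 3.35, Col4a2 at 5.57 ± 1.41, Col4a1 at 3.88 ± 0.816, Col19a1 at 3.66 ± 1.26 and Col11a2 at 3.21 ± 0.756 CPM. Neighbours in this order differed by less than the sum of their SDs. Col19a1, known from interneurons, read 25.2 ± 8.71 CPM in control brain and had 1 count in the 3 control liver libraries together, and Col25a1 was higher in brain by 4.03 on the log2 scale (SE 0.23). Col26a1 read 5.32 ± 0.857 CPM in control brain and had no count in control liver, which makes it at least 15.2-fold higher in brain against a floor of 3 counts per liver library (0.350 CPM). By the same floor the brain mean of Col22a1 was at least 4.96-fold and that of Col17a1 at least 2.72-fold higher. All 3 limits cover counting error in liver only, and not the error of the brain mean. Col17a1 had 21, 11 and 22 counts in the control brain libraries. The chains of type I collagen did not differ at the adjusted threshold, with log2 fold changes of 1.01 (SE 0.55, adjusted p 0.106 by edgeR) for Col1a1 and 0.71 (SE 0.38, adjusted p 0.098) for Col1a2.

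**Figure D5:**
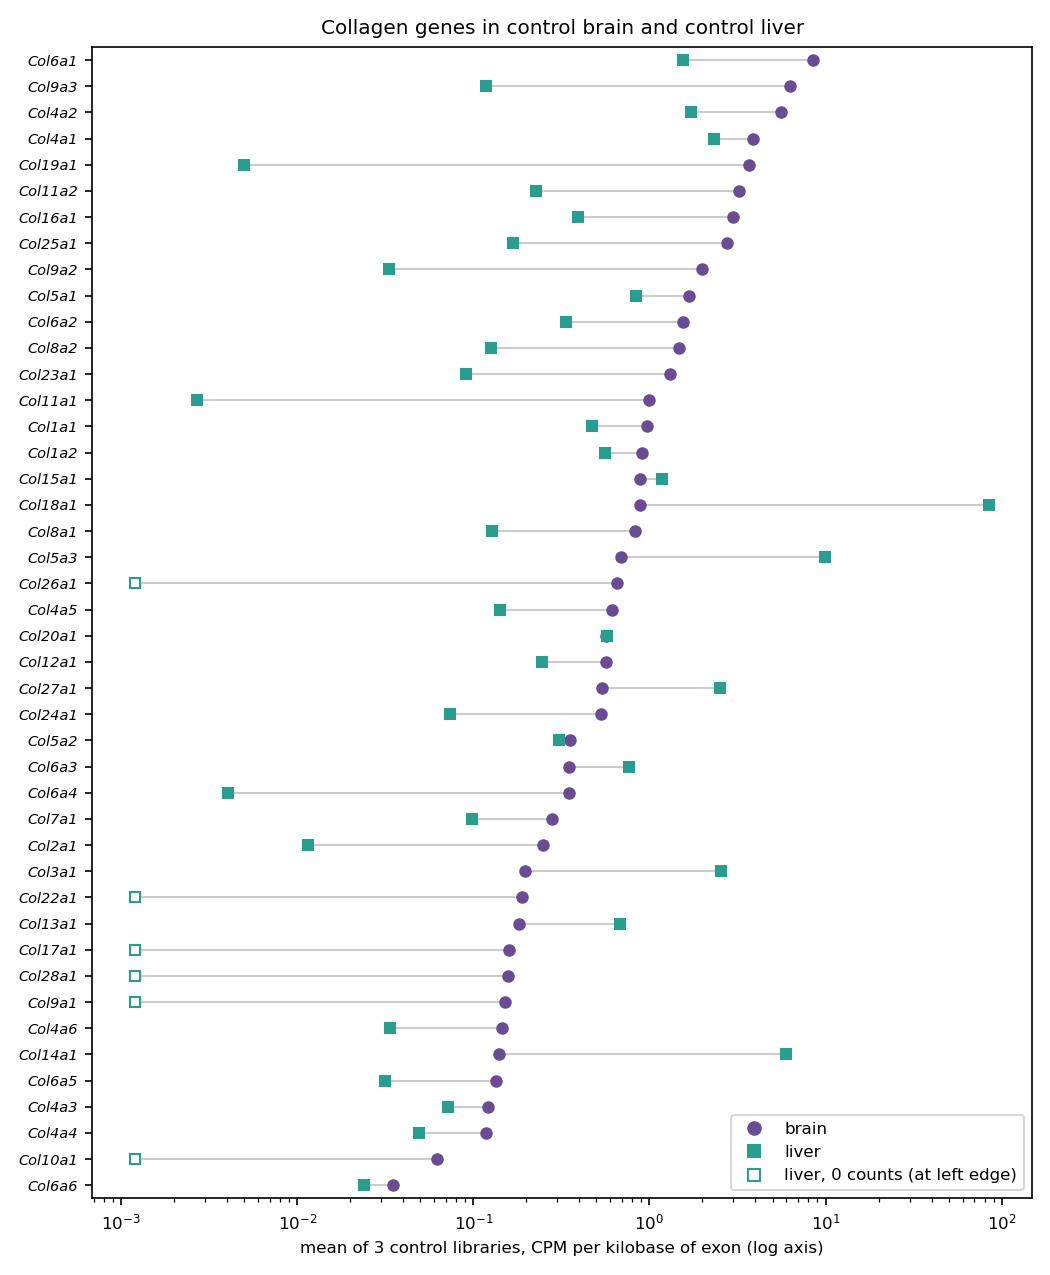
Mean level of each of the 44 collagen genes in 3 control brain (circles) and 3 control liver (squares) libraries, in CPM per kilobase of exon on a log axis with all 12 libraries scaled together; open squares at the left edge had no count in control liver. Col18a1 reached 85.1 CPM per kilobase in liver, and Col26a1, Col22a1, Col17a1, Col28a1, Col9a1 and Col10a1 had no count there.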

How the data were processed

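Messenger RNA libraries of brain and liver were made with a stranded protocol. The authors deposited raw read counts per gene symbol in 12 columns, all of which were used. Per the submitters' notes and the methods, reads were trimmed with Trimmomatic 0.39 and aligned to mm10 with HISAT2 2.2.1, then counted with featureCounts (Subread 2.0.1); the methods also name Tophat2 and HTSeq. The counting strand is not given in the sources used here, so reads of overlapping genes on opposite strands (Col4a1 with Col4a2, Col9a3 with Tcfl5, Col10a1 with Nt5dc1, Col18a1 with Slc19a1) may not be separated. The deposited tables of log2 fold changes and p-values hold the authors' own comparisons and were not used.

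Counts were fitted in R 4.3.3 with edgeR 4.0.16 (filterByExpr at 10 counts per library and 15 in total, TMM, robust quasi-likelihood test, Benjamini-Hochberg over all genes tested). Each standard error was derived from the log2 fold change and its F statistic. DESeq2 1.42.0 was an alternative, beside RLE and upper-quartile scaling, other filters, all libraries in 1 fit, the replicate number as a block, each library left out, and for liver the 2 libraries with muscle transcripts left out or their marker level as a covariate. The column suffix as a term in liver was added after the data were seen. Ratios of chains used counts + 0.5 for the test and counts for the printed values. Exon lengths and coordinates came from GENCODE M21 (GRCm38). The procedures were tested on simulated counts. Precision is set by 3 libraries per group and by totals of 10466198 to 15609040 counts.

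Collagen genes, classes and lists were chosen with earlier results of these data known. Named collagen genes were those with an unadjusted p under 0.05 or without overlap of the groups, the 2 with the highest mean in each class, and the chains of the ratios; others named give the rest of a class. Named partners were a set of core genes and those with an unadjusted p under 0.05.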

Additional observations from a re-analysis of the deposited data

How the results depend on the processing

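No collagen gene was called at an adjusted p under 0.05 for heat stress against control, or for the difference of that effect between tissues, under any alternative run, in edgeR or DESeq2. Over all genes, edgeR called 0 in brain in each setting (DESeq2 618) and 0 in liver, with up to 81 under the alternatives (DESeq2 61). Collagen counts at an unadjusted p under 0.05 moved more. In brain, genes higher were 1 (DESeq2 2, and 0 to 2 when a library was left out) and genes lower were 5 (0 to 9). In liver, genes higher were 2, with 1 under RLE, 1 under upper-quartile scaling, 0 with the stricter filter, 0 with DESeq2, 5 with the column suffix as a term (chosen after the data were seen) and 0 to 6 when a library was left out, and genes lower were 0, with 1 when all 12 libraries were fitted. For the difference between tissues, genes higher were 2 and ranged from 0 to 7, and genes lower ranged from 0 to 1. The replicate numbers did not pair control with heat stress libraries of a tissue. Deviations of these same-numbered libraries correlated at -0.30, 0.21 and -0.20 in brain and -0.61, -0.53 and -0.09 in liver. Whether same-numbered brain and liver libraries share a mouse was not tested. With the replicate block, 7 of 42 collagen genes in brain, 0 of 21 in liver and 1 of 42 for the difference had an unadjusted p under 0.05. In all 2852 of 14806, 321 of 12296 and 1146 of 15824 genes did. With a library left out, all genes at that p ranged from 1655 of 15005 to 4027 of 14979 in brain. In liver they ranged from 414 of 12655 to 1614 of 12519, and for the difference from 988 of 16109 to 3053 of 16120. Log2 fold changes that changed sign when a library was left out ranged, in brain, from -0.22 to 0.15 for Col11a2, -0.43 to 0.19 for Col16a1, -0.65 to 0.12 for Col1a2, -0.20 to 0.063 for Col25a1, -0.42 to 0.17 for Col5a1, -0.19 to 0.31 for Col6a2 and -0.62 to 0.052 for Col7a1. In liver they ranged from -0.19 to 0.52 for Col13a1, -0.044 to 0.23 for Col14a1, -0.79 to 0.38 for Col15a1, -0.073 to 0.66 for Col18a1, -0.17 to 1.33 for Col1a1, -0.42 to 0.18 for Col27a1, -0.22 to 0.54 for Col4a2, -0.38 to 0.018 for Col5a3 and -0.010 to 0.49 for Col6a3. Without both libraries with muscle transcripts Col27a1 was at 0.26 and Col6a3 at -0.15, with the muscle level as a covariate Col4a2 was at -0.065, and with the column suffix as a term Col15a1 was at 0.011. In liver the log2 difference of the Col1a1 to Col1a2 ratio ranged from -0.28 to 0.41, that of the Col4a1 to Col4a2 ratio from -0.15 to 0.27, and that of the summed multiplexin level from -0.077 to 0.67 when a library was left out. The cause of these shifts was not tested. Of the values of named genes under alternatives, 475 kept their sign and their side of the threshold and 31 changed sign. Low counts limit most liver collagens, and 3 libraries per group limit every comparison.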
